A study of Mus musculus with 50 samples.

Results

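CpG-dense stretches that lie outside genes were examined in mouse soleus, a slow postural muscle of the lower leg, in which DNA methylation had been measured by reduced representation bisulfite sequencing (RRBS). The clusters of neighbouring CpGs were those defined by the study, in which CpGs at most 100 bp apart belong to 1 cluster. The clusters taken here held at least 30 CpGs in the genome and had no measured CpG that the study assigned to a gene promoter or a gene body. This gave 1848 of 51038 clusters, with 11099 measured CpGs. A ribosomal DNA stretch of chromosome 17 was left out of them.

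Of the 50 samples of the series, 44 had counts in the table and 6 were not used here. The WT mice were C57BL/6 and carried floxed Dnmt3a alleles (Dnmt3a flox/flox) without Cre, and gave 21 muscles. Of these, 5 were from rested mice, and 5, 5 and 6 had been taken 10, 30 and 60 min after a treadmill bout. The mD3AKO mice carried the same floxed alleles with Cre under the muscle creatine kinase promoter, and gave 23 muscles, 5 from rested mice and 5, 7 and 6 from those later times. Rested mice had spent their time in a sham treadmill instead. All were young adults, and each group held males and females. That promoter is switched on late in muscle differentiation and also in heart, so cells of the soleus other than muscle fibres may keep Dnmt3a in mD3AKO, which was not tested here. Whole muscle was measured, and a lower level within fibres cannot be told apart from a different mixture of cells. The deletion itself was not checked here, since RRBS of CpGs does not read it.

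DNMT3A is a de novo DNA methyltransferase, an enzyme that places methyl groups on CpGs that carry none. CpG-dense stretches of vertebrate genomes, the CpG islands, are mostly free of methylation, whereas most other CpGs are methylated. Islands away from annotated starts are known as orphan islands. Some of them are promoters of noncoding transcripts or lie around genes of developmental transcription factors, and others are young transposable elements, in which dense CpGs are kept methylated.

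The sequences below show what such stretches look like. They were read from the forward strand of GRCm38, and capitals mark the CpGs measured in every sample. The first 5 belong to clusters whose level was lower in mD3AKO with the lowest p-values, the sixth to the only cluster whose level was higher by the test used, and each is named by the nearest start of a protein-coding gene, which says nothing of the gene it may act on.
Nanos3, chr8:84197376-84197467: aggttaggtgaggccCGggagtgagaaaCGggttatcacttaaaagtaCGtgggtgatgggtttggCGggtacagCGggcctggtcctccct
Nfe2l3, chr6:51173785-51174038: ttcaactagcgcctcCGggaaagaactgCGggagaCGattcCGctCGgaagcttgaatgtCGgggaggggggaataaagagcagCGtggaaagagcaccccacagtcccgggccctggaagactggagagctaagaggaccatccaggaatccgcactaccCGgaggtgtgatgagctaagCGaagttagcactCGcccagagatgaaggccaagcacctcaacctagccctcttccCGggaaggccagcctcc
Fam229a, chr4:129500610-129500738: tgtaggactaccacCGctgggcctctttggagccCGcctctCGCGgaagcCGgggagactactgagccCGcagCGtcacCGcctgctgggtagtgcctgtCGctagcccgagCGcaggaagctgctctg
Dll1, chr17:15380362-15380516: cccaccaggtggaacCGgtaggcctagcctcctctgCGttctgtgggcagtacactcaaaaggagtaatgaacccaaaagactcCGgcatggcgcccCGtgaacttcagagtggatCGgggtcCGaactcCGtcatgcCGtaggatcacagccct
Atoh8, chr6:72189077-72189162: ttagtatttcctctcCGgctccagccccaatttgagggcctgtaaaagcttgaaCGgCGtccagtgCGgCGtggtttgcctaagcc
Tbx3, chr5:119563854-119564049: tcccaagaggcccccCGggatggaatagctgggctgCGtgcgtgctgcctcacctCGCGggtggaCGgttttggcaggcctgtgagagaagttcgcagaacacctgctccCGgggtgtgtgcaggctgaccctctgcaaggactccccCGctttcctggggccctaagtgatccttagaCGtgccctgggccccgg

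A methylation level is the share of methylated among all calls of a cluster in a sample, in percent. The highest and the lowest WT level are shown for contrast, chosen after their values were seen. They were sought among clusters with 5 or more measured CpGs, at most 50% repeat sequence and little sequence shared with other clusters. The first, 192869 bp from the start of Msx2, a homeobox gene of limb and skull development, had 94.8% ± 3.63 in WT (SD, n = 21) and 95.1% ± 3.97 in mD3AKO (SD, n = 23). The second, 43565 bp from Ccr1, a chemokine receptor gene, had 0.0700% ± 0.178 (SD, n = 21) and 0.535% ± 0.988 (SD, n = 23). Both stretches are rich in CpGs, yet they stood at opposite ends of the scale.
Msx2, chr13:53666017-53666197: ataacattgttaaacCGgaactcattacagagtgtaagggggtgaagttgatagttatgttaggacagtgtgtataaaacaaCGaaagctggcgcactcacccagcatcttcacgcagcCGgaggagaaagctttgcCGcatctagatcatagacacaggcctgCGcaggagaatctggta
Ccr1, chr9:123924622-123924727: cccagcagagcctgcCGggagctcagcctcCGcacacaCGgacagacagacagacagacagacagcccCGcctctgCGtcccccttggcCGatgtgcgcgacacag

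The 1848 clusters were 284 to 10321 bp long with a median of 1013 bp. Their median GC content was 55.8%, and the median ratio of observed to expected CpGs was 0.623. They held 30 to 594 CpGs in the genome, median 45, of which RRBS measured 1 to 37, median 4, and 248 clusters rested on a single CpG. Levels therefore describe the measured CpGs, a median of 9.25% of those in a cluster. Samples had 12819404 to 41285655 methylation calls in all and 694475 to 2211040 in these clusters, and a cluster had 8 to 116854 calls in a sample, median 372. At 30 CpGs, just inside the limit, 97 clusters had a median WT level of 51.7%, and at 29 CpGs, just outside it, 118 intergenic clusters had a median of 63.3%.

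Clusters were most frequent at the low and the high end of the scale. By the mean of all 44 samples, 804 clusters were below 5%, 238 between 5 and 20%, 120 between 20 and 40%, 98 between 40 and 60%, 161 between 60 and 80%, 328 between 80 and 95%, and 99 at or above 95%. The median WT level was 10.9%, with quartiles at 1.47 and 76.8%. Repeat content went along with this split. In the reference, 432 clusters had more than 50% of their bases masked as repeats, and their median WT level was 89.4%. The other 1416 had a median of 3.67%, and 783 of them, 55.3%, were below 5% in WT. No repeat-rich cluster was below 5%, and the lowest stood at 15.4%.

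**Figure D1:**
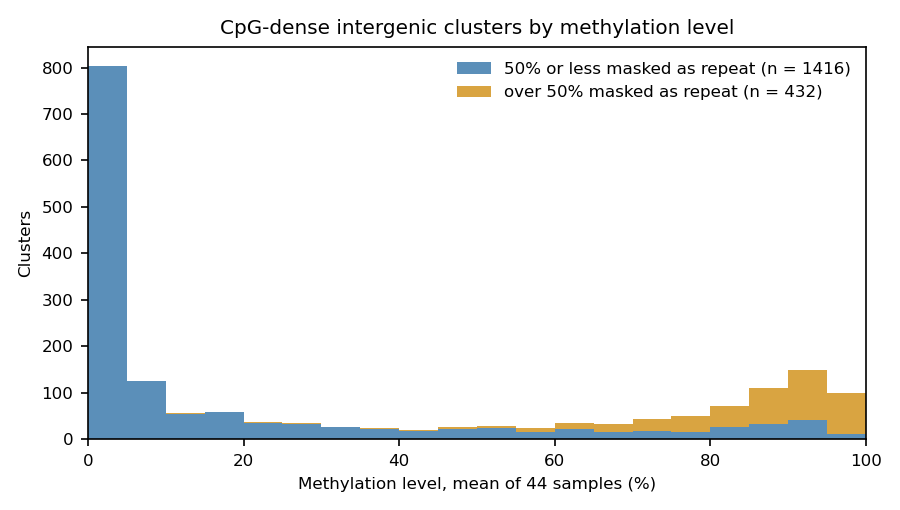
Number of clusters (y axis) by methylation level, the mean of 44 samples in percent (x axis, bins of 5), stacked by repeat content. The 1416 clusters with at most 50% of their bases masked as repeats pile up near 0, and the 432 repeat-rich clusters lie mostly above 80%.

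Many of the repeat-rich clusters shared sequence with others. When clusters that shared at least 100 words of 40 bases were joined, 421 clusters fell into 41 families, 361 of these clusters being repeat-rich. Members of a family are called copies here, though they need not be alike over their whole length. The largest family held 113 clusters on 19 chromosomes with a median WT level of 93.1% and a range of 44.2 to 98.1%. The next ones held 90 clusters with a median of 82.1% and 46 clusters with a median of 91.1%. In these families a median of 57.6, 48.6 and 61.9% of a copy's words occurred in another of the clusters. Reads from such copies can be placed on the wrong one, so that the level of each copy is uncertain.

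Other families stood low. One of 10 clusters on chromosome 12, near Asap2, Gm10330, Gm21863 and Hpcal1, held little repeat sequence and had a median WT level of 3.24%, but its copies ranged from 0.464 to 55.4%. Of its copies, 2 are shown because they share a run of 40 identical bases around a measured CpG and yet differ in level. The cluster at chr12:20196523-20197222, with 36 measured CpGs, stood at 1.16% ± 0.722 in WT (SD, n = 21). The cluster at chr12:20311919-20312797, with 12, stood at 55.4% ± 6.57 (SD, n = 21). In mD3AKO they had 1.05% ± 0.679 and 57.5% ± 4.35 (SD, n = 23), so neither moved by more than its spread.
chr12:20196644-20196783: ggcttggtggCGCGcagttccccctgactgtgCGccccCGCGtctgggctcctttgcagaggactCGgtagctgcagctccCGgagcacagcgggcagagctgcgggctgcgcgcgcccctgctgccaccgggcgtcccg
chr12:20312235-20312374: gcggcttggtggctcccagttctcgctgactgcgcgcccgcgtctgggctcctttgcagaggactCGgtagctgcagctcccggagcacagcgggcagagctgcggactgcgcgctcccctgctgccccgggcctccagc

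The position of the clusters was checked against a later annotation, GENCODE release M21. Overlap with genes and promoters was taken from the first to the last measured CpG, so the rest of a cluster can still reach a gene. Of the 1848, 527 overlapped an annotated gene, of which 26 overlapped a protein-coding gene. A promoter window, 3000 bp upstream to 1000 bp downstream of an annotated start, was touched by 519, and 1161 were in neither a gene nor a promoter. The clusters clear of both had a median WT level of 27.6%, and the other 687 had 3.30%. The median distance to the nearest start of a protein-coding gene was 29884 bp, with 1388 clusters more than 10 kb and 418 more than 100 kb away. Among clusters that were not repeat-rich, the median WT level was 2.50% within 10 kb of such a start (n = 436), 3.92% at 10 to 100 kb (n = 796) and 14.1% beyond 100 kb (n = 184).

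Some clusters lay nearest to genes of transcription factor families with many members known from development (Hox, Pax, Sox, Lhx, Tbx and others). By symbol, this held for 254 of the 1848 clusters, and the share among other clusters was not counted. Nearest to Pax2, of kidney and eye development, there were 10, nearest to Pou3f2, a neuronal factor, 6, nearest to Hand2, of heart and limb, 6, and 5 each nearest to Uncx, Lhx5, Sox1, Msx1 and Nr2f1. The 240 of them that were not repeat-rich had a median WT level of 2.83% with quartiles at 1.26 and 8.40%. The other 1176 clusters low in repeats had a median of 4.05% with quartiles at 1.02 and 30.5%. The lower quartiles were close, and the upper quartile was lower for the list.

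An imprinted gene was nearest to 10 clusters. Such a gene is expressed from 1 parental copy and often neighbours a stretch methylated on only 1 of the parental copies. The cluster 3717 bp from Cdkn1c, a cell cycle inhibitor, at chr7:143465452-143465472, stood at 57.3% ± 19.8 in WT (SD, n = 21) and 53.1% ± 21.4 in mD3AKO (SD, n = 23). A CpG 65787 bp from Dlk1 stood at 38.5% ± 20.2 and 35.5% ± 19.1. The other 8 ranged from 0.676 to 85.2% in WT. None of the 10 was called for genotype (edgeR quasi-likelihood test, lowest adjusted p = 0.124), and 1 had an unadjusted p below 0.05.

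The comparison of genotypes asks whether loss of DNMT3A in muscle lowers methylation at these stretches. On average the mD3AKO level was lower by little. The mean level over the 1848 clusters was 34.1% ± 0.680 in WT (SD, n = 21), with samples from 32.8 to 35.2%, and 33.4% ± 0.695 in mD3AKO (SD, n = 23), with samples from 31.9 to 34.5%. The groups overlapped, and 20 of 23 mD3AKO muscles lay under the mean of WT. The difference, -0.70 percentage points, was close to the SD between samples. It was -0.71 among the samples numbered 1 to 25, taken at rest or 60 min, and -0.69 among those numbered 26 to 50, taken at 10 or 30 min. When the calls of all clusters were pooled, so that deep clusters weighed more, the level was 22.2% ± 3.31 in WT and 21.7% ± 3.27 in mD3AKO (SD, n = 21 and 23). That difference, -0.45 points, was well within the spread, with 13 of 23 mD3AKO muscles below the WT mean, and it was -0.68 and -0.21 points in the same sets of samples.

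Clusters low in repeats and repeat-rich ones were then taken apart, without a test of the difference between them. Over the first 1416 the mean level was 18.7% ± 0.820 in WT and 17.9% ± 0.764 in mD3AKO, and 19 of 23 mD3AKO muscles lay under the mean of WT. Over the 432 repeat-rich clusters it was 84.6% ± 0.666 and 84.5% ± 0.846, with 11 of 23 below. In the clusters low in repeats the median difference was -0.13 points below 5%, -1.39 points at 5 to 20%, -2.17 at 20 to 40%, -2.25 at 40 to 60%, -1.28 at 60 to 80%, -0.20 at 80 to 95% and -0.47 above. The largest losses in points were thus at middle levels, where replicates also spread most: the median SD between WT samples was 1.59 points below 5% and 13.6 points at 40 to 60%. In the repeat-rich clusters between 60 and 95% the median difference was -0.11 points or smaller. Over all 51038 clusters of the table the medians at the same levels were -0.06, -1.73, -2.66, -2.11, -1.38, -0.68 and -0.38 points.

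**Figure D2:**
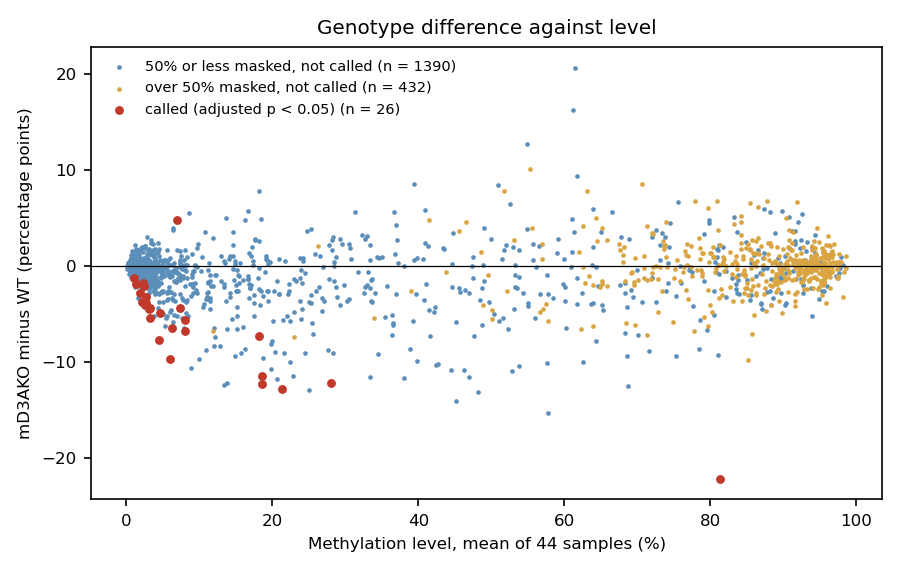
Difference in level, mD3AKO minus WT in percentage points (y axis), against the mean level of 44 samples in percent (x axis), 1 point per cluster. The points fan out at middle levels. Of the 26 called clusters, in red, 25 lie below 40% and 25 below 0, and the single CpG near Epcam lies above 80% with a difference of -22.2 points.

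Each cluster was tested with methylated and unmethylated counts in edgeR by the quasi-likelihood test, with Benjamini-Hochberg adjustment over all 51038 clusters. Of the 1848 clusters, 26 (1.41%) were called at an adjusted p below 0.05, where 1.09% of all clusters were, so the share was near the background. At an unadjusted p below 0.05 there were 172 (9.31%), beside 9.56% of all clusters. The call was a lower level in 25 and a higher one in 1. By the same rule 1.16% of the 8645 CpG-dense promoter clusters were called, 2.09% of the 3009 CpG-dense gene body clusters and 0.576% of the 18412 intergenic clusters with fewer CpGs. Their median differences were -0.06, -0.30 and -0.81 points, beside -0.24 points here. Other tests gave more calls: the likelihood ratio test in edgeR called 61 of the 1848 clusters, where it called 2.77% of all clusters, and limma called 39, where it called 1.75%. All 26 were among both, and 5 and 2 of these calls were for a higher level. Contrasts over fewer groups, taken from the same fit of all samples, gave fewer calls: 3 with samples 1 to 25 (0.0843% of all clusters), 4 with samples 26 to 50 (0.151%), and 0 at rest alone (0.00588%).

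All 26 called clusters were low in repeats, and none was in a family of copies. A WT level below 5% was found in 10, 15 stood between 5 and 40%, and 1 was higher. Their median level was 6.60% in WT and 1.43% in mD3AKO. A gene of release M21 was overlapped by 11, and 14 were clear of its genes and promoters. By mean level over all samples, 1.74% of these clusters were called below 5%, 3.78% at 5 to 20% and 1.67% at 20 to 40%. In the whole table the shares were close to these, 1.01, 3.70 and 1.77%. At 40 to 60, 60 to 80 and 80 to 95% they were 0, 0 and 0.305%, beside 1.05, 0.862 and 0.219% in the whole table. The 12 with the lowest p-values, each called in all 44 refits that left out 1 sample, follow, by what the nearest coding gene is known for.

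Of these 12, 5 lay nearest to genes that control transcription or germ cells. The Nanos3 cluster, at chr8:84197391-84197451 and 12174 bp upstream of a gene needed to keep primordial germ cells, had 0.901, 8.17 and 20.6% in the lowest, median and highest WT sample and 0, 0.224 and 3.11% in the mD3AKO samples. The groups overlapped little, since 15 of 23 mD3AKO samples were below every WT sample and 15 of 21 WT samples above every mD3AKO sample. Its log2 odds ratio was -4.21 ± 0.51 (SE), the lowest p of these clusters (edgeR, adjusted p = 2.06e-06). A noncoding gene of release M21, Gm26887, covers it.

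Nfe2l3 encodes a bZIP factor of the stress response, and the cluster lies 258647 bp upstream of it, at chr6:51173800-51174022. The lowest, median and highest values were 3.76, 8.81 and 21.1% in WT and 0.105, 2.83 and 7.73% in mD3AKO, and 16 mD3AKO samples were below every WT sample. The mean fell from 9.63% ± 3.90 (SD, n = 21) to 3.19% ± 1.71 (SD, n = 23; edgeR, adjusted p = 5.13e-04). Atoh8 encodes a bHLH factor, and its cluster, 44505 bp downstream of the start at chr6:72189092-72189146, spread widely in WT, from 0 to 39.3% with a median of 9.03%, but narrowly in mD3AKO, from 0 to 5.33% with a median of 0.850%. Here 12 of 21 WT samples were above every mD3AKO sample (edgeR, adjusted p = 0.00266). Creb3l1 encodes a factor anchored in the endoplasmic reticulum. Its cluster, 30586 bp upstream at chr2:92055150-92055461, had values of 14.7, 26.1 and 49.6% in WT and 6.02, 12.2 and 35.8% in mD3AKO. Here 14 of 23 mD3AKO samples were below every WT sample, but 4 of 21 WT samples were above every mD3AKO sample (edgeR, adjusted p = 0.00303). Mrtfb encodes a coactivator of serum response factor, which drives contractile genes. Its cluster, at chr16:13437853-13437887, was at 0 in the median mD3AKO sample and at 1.99% in the median WT sample. The highest values were 2.56 and 18.1% (edgeR, adjusted p = 0.00608). Of its measured stretch, 58.3% was masked as repeats.

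Another 4 lay nearest to genes of cell signalling. Dll1 encodes a Notch ligand, and its cluster, 3393 bp upstream at chr17:15380377-15380500, had 4.01, 11.7 and 19.2% in WT and 0.990, 4.47 and 8.77% in mD3AKO. All 23 mD3AKO samples were below the WT mean (edgeR, adjusted p = 9.00e-04). Fzd9 encodes a Wnt receptor. Its cluster, 6993 bp upstream at chr5:135258348-135258608, stood at 34.5% ± 9.67 in WT (SD, n = 21) and 22.2% ± 4.93 in mD3AKO (SD, n = 23) (edgeR, adjusted p = 0.00972). There the loss was -20.0 points among samples 1 to 25 and -4.02 points among samples 26 to 50, and the interaction of genotype and time had an unadjusted p of 0.0397 (edgeR) that did not pass adjustment. Pim1, a growth-promoting kinase, and Dgkh, a diacylglycerol kinase, had clusters that fell from 6.06% ± 6.63 to 0.596% ± 0.749 and from 4.44% ± 2.63 to 1.18% ± 0.936 (SD, n = 21 and 23; edgeR, adjusted p = 0.00494 and 0.00785). The Dgkh cluster, at chr14:78732084-78733399, is within Dgkh in release M21, so it is intergenic only by the study's assignment. Noncoding genes of that release overlap the clusters near Fam229a, Creb3l1, Mrtfb, Pim1 and Csrp1. The Copz2 cluster touches the promoter window of another noncoding gene.

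The other 3 lay nearest to genes of other kinds. Fam229a is little characterised, and its cluster, at chr4:129500625-129500722, had a median of 4.12% in WT and 0.488% in mD3AKO (edgeR, adjusted p = 6.47e-04). Copz2 encodes a subunit of the coat of Golgi vesicles, and its cluster, at chr11:96875855-96876069, had medians of 3.37 and 0.269% (edgeR, adjusted p = 0.00494). Csrp1 encodes a LIM-domain protein of smooth muscle. Its cluster, 31149 bp upstream at chr1:135687884-135688624, had the most measured CpGs of the 12, 30 of 97, and fell from 3.21% ± 1.12 (SD, n = 21) to 1.44% ± 0.684 (SD, n = 23), with all 23 mD3AKO samples below the WT mean and 16 of 21 WT samples above every mD3AKO sample (edgeR, adjusted p = 0.00559).

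**Figure D3:**
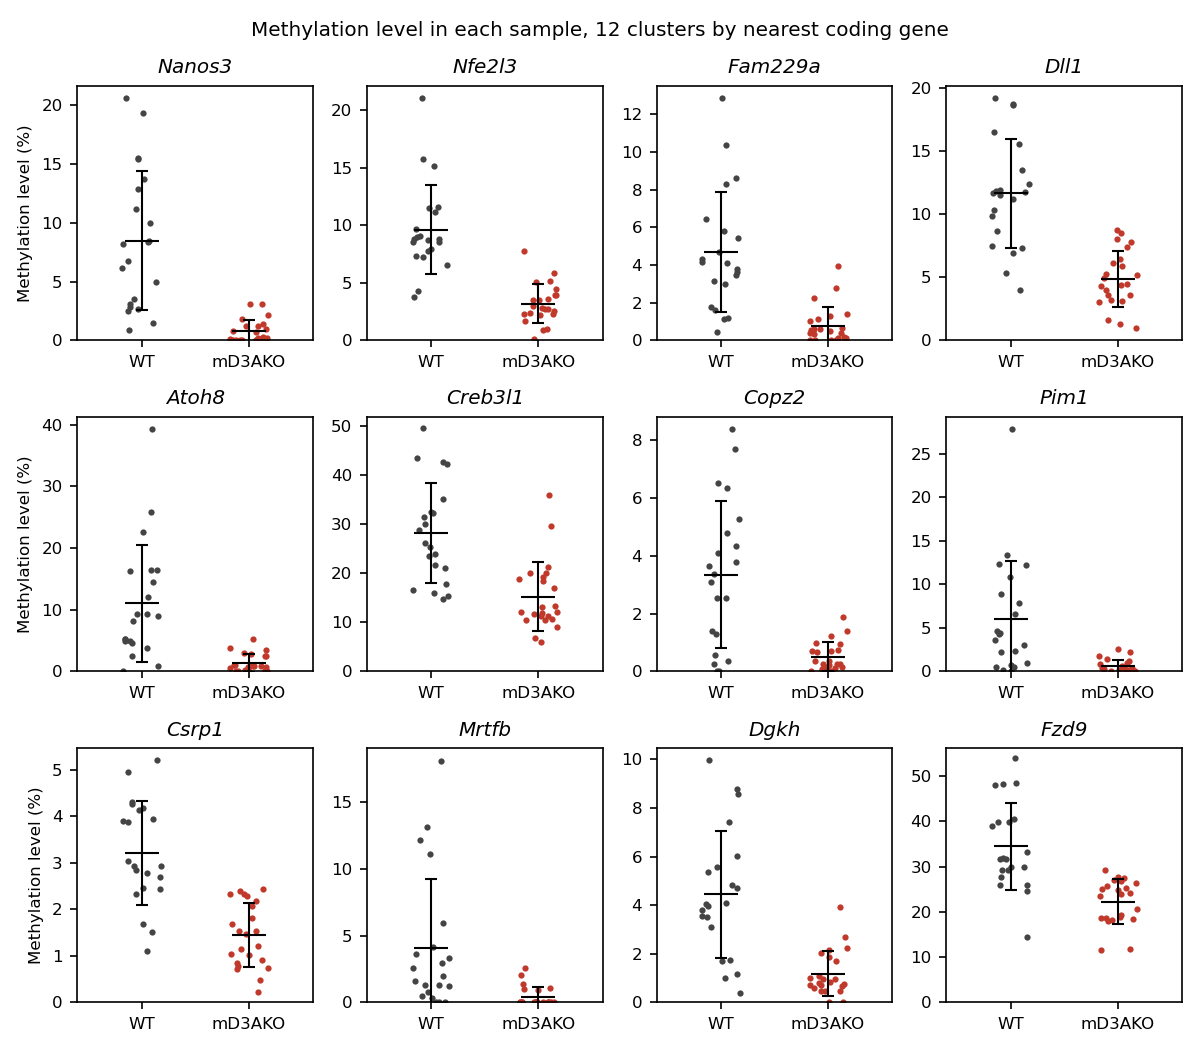
Methylation level in percent (y axis) of the 12 clusters with the lowest p-values for genotype, 1 point per sample, for 21 WT and 23 mD3AKO samples, with the mean and SD as bars. In each panel WT is higher and more spread, and the mD3AKO samples of Nanos3 lie between 0 and 3.11%.

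Of the 14 other called clusters, 13 were lower. The cluster 55357 bp upstream of Ppara, a regulator of fat oxidation, fell from 25.1% ± 9.99 to 12.8% ± 6.91 (SD, n = 21 and 23; edgeR, adjusted p = 0.0447). The lowest level was at the cluster near Ptma, with 1.65% in WT and 0.371% in mD3AKO. The highest was at a single CpG 65004 bp from Epcam, an epithelial adhesion gene, at chr17:87570974-87570974, with 93.0% ± 9.45 and 70.8% ± 24.5 (edgeR, adjusted p = 0.0482). It had 9 to 187 calls in a sample, and 12 mD3AKO samples were below every WT sample while others were at 100%. These 3 calls were close to the threshold. In 44 refits that each left out 1 sample, the clusters of Ppara, Ptma and Epcam were called in 16, 13 and 15. With sex as a term the adjusted p was 0.0512 for Epcam (edgeR). Noncoding genes of release M21 overlap the Ppara cluster and the Epcam CpG.

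The call of a higher level was at the cluster 106499 bp upstream of Tbx3, a T-box factor of limb and heart development, at chr5:119563869-119564033. Its lowest, median and highest values were 0.0770, 3.50 and 16.7% in WT and 2.47, 8.22 and 19.9% in mD3AKO. Means rose from 4.35% ± 3.57 (SD, n = 21) to 9.20% ± 4.50 (SD, n = 23), with 4 of 23 mD3AKO muscles under the mean of WT (edgeR, adjusted p = 0.0330). Over all clusters 0.00588% were called higher. The rise was seen in all 8 measured CpGs, by 2.08 to 9.08 points. It was 4.48 points among samples 1 to 25 and 5.21 among samples 26 to 50. The call was kept in 37 of the 44 refits that left out 1 sample, with an adjusted p of 0.0597 (edgeR) in the weakest, and it was lost at a coverage minimum of 20 reads per CpG (edgeR, adjusted p = 0.0565). Of the 254 clusters nearest to genes of the listed families, those of Tbx3 and Atoh8 were the only ones called, 0.787% beside the 1.09% of all clusters.

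Within clusters the loss was not always even. In the Nanos3 cluster all 5 CpGs were at 5.80 to 10.0% in WT and at 0.214 to 1.47% in mD3AKO. The 11 CpGs of Nfe2l3, the 15 of Copz2 and the 8 of Fzd9 were all lower, with differences of -10.1 to -1.41, -6.03 to -0.15 and -17.6 to -5.84 points. The Csrp1 cluster was different. Its first 27 CpGs, over 649 bp, were at 2.60% or less in WT and differed by less than 1.5 points, but the last 3, at 658, 687 and 740 bp from the first, stood at 12.6, 19.5 and 32.7% in WT and at 4.94, 8.02 and 14.4% in mD3AKO. In the Dgkh cluster likewise, the first 8 CpGs, within 62 bp, were at 1.46% or less in WT, and those at 1219 to 1272 bp were at 7.14 to 18.4% in WT and at 0.422 to 2.70% in mD3AKO. In these 2 clusters the level of the whole cluster therefore understated the change at its methylated side.

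**Figure D4:**
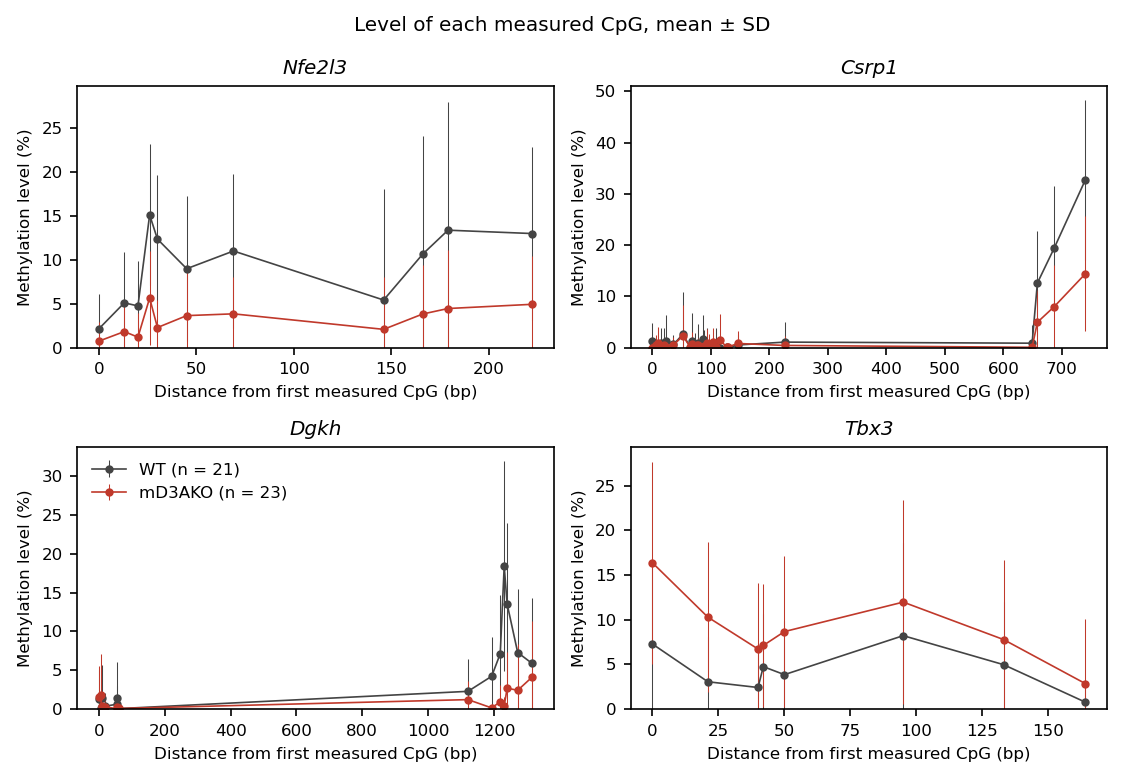
Methylation level in percent (y axis, mean ± SD, 21 WT and 23 mD3AKO samples) of each measured CpG against its distance in bp from the first measured CpG of the cluster (x axis); bars are cut off at 0. The Nfe2l3 cluster is lower throughout, in those of Csrp1 and Dgkh the difference lies on the right side, and in that of Tbx3 mD3AKO is higher at each CpG.

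Several clusters with large differences were not called. Besides the Epcam CpG, the largest were all single CpGs: near Wif1, a secreted Wnt inhibitor, with 50.7% ± 20.7 in WT and 71.4% ± 21.9 in mD3AKO, near Crhr1, a hormone receptor gene, with 52.6% ± 28.8 and 68.9% ± 19.6, near Wnt7b with 65.8% ± 15.4 and 50.5% ± 13.4, and near Arhgap29 with 52.6% ± 25.0 and 38.5% ± 26.8 (SD, n = 21 and 23). Their adjusted p-values were 0.217 to 0.732 (edgeR quasi-likelihood test). The CpGs near Wif1 and Wnt7b, with unadjusted p-values of 0.00661 and 0.00702 in that test, were called by the likelihood ratio test in edgeR (adjusted p = 0.0451 and 0.0478) and not by limma (adjusted p = 0.104 and 0.0856).

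Of the 5 clusters with most CpGs, none was called for genotype. Of them, 2, near 1700008P02Rik and Lama2, with 594 and 469 CpGs, belonged to the largest repeat family and were at 90.1 and 97.9% in WT. The other 3 were low: 1.01% near Smim15 with 410 CpGs, which release M21 places in Zswim6, 6.26% at Gm36079 with 342 CpGs, and 0.421% near Gpc5 with 325 CpGs, which lies at the host gene of the miR-17 cluster. A start of Gm36079 in release M21 lies within its cluster, outside the measured stretch. In the order given, RRBS measured only 4, 1, 12, 3 and 20 CpGs of these 5 clusters, so the levels describe a small part of each. Differences of these 5 were between -3.87 and 0.01 points, with adjusted p-values of 0.563 or above (edgeR). The highest WT levels, 98.1 to 99.8%, were those of clusters near Prok2, Scgb1b24, Adamts5, Ankrd55 and Prdm9, all repeat-rich copies. The lowest, 0 to 0.0700%, were those near Smug1, Sp8, Igip, Bicra and Ccr1, all low in repeats. The Bicra cluster had 0.0672% ± 0.212 in WT and 1.26% ± 1.62 in mD3AKO (SD, n = 21 and 23). It was not called in the quasi-likelihood test (edgeR, adjusted p = 0.0620) or by limma (adjusted p = 0.205), but it was called by the likelihood ratio test (edgeR, adjusted p = 0.0159) and with sex as a term (edgeR, adjusted p = 0.0344). Of the 5 lowest, 2 had no methylated call in any WT sample.

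The next comparisons asked whether exercise changed these stretches. No cluster of the 1848 was called for time after exercise or for an interaction of genotype and time, and of all clusters 0% were (edgeR quasi-likelihood test). At an unadjusted p below 0.05 there were 66 and 61 of the 1848, 3.57 and 3.30%, where 2.86 and 2.74% of all clusters were. The likelihood ratio test in edgeR called 0 of the 1848 for either effect, with 0.0196 and 0.0137% of all clusters, and limma called 0, with 0 and 0.00196%. The lowest p for time was at a cluster near Synm, a gene of intermediate filaments, with group means of 4.15, 0.190, 0.918 and 2.19% in WT and 1.13, 0.0525, 0.586 and 0% in mD3AKO at rest, 10, 30 and 60 min, and next at one near Tmem161b. For the interaction it was a single CpG near Olfr933, with 67.7, 54.7, 75.8 and 77.0% in WT and 72.7, 89.9, 68.5 and 65.7% in mD3AKO, and next a cluster near Akna. All 4 had an adjusted p of 1 (edgeR). Time goes along with the sets of sample numbers, 1 to 25 and 26 to 50, and the parts of time and set were not separated.

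**Figure D5:**
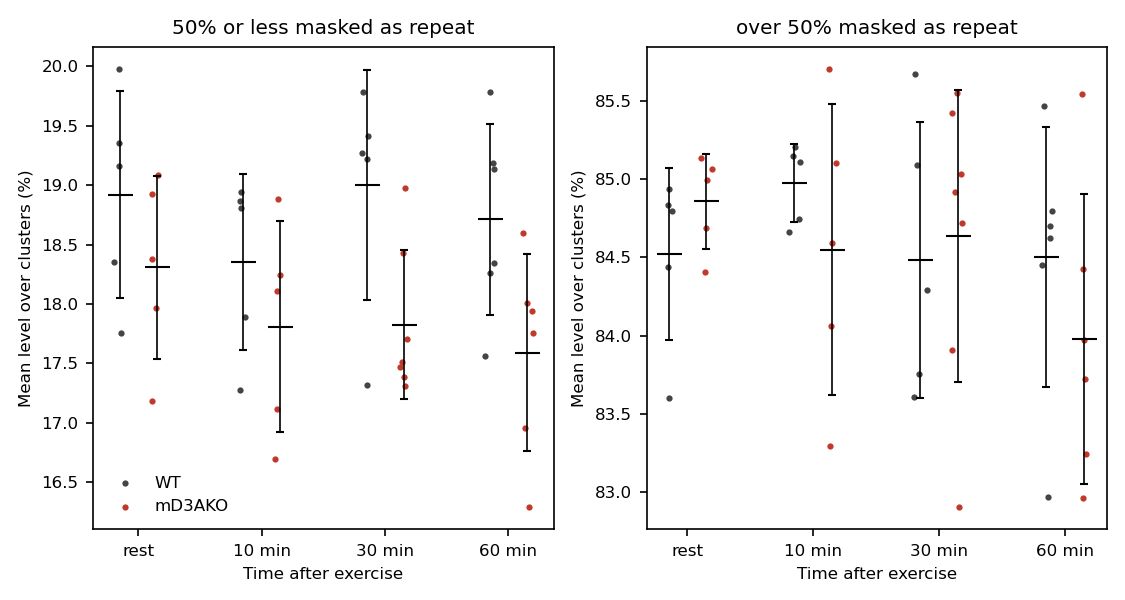
Mean methylation level over clusters in percent (y axis) by time after exercise (x axis) in each sample, with group mean and SD as bars, for clusters with at most 50% of bases masked as repeats (left) and for repeat-rich clusters (right). On the left the mD3AKO means, 17.6 to 18.3%, lie below the WT means, 18.4 to 19.0%, at each time, and on the right the genotypes overlap between 82.9 and 85.7%.

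Males and females differed in no cluster at an adjusted p below 0.05 (edgeR quasi-likelihood test with sex as a term and limma, 0 of 1848 each), with 118 at an unadjusted p below 0.05 in edgeR, 6.39% beside 4.38% of all clusters. The lowest p was at a cluster near Dlx4, a homeobox gene, with 6.58% in females and 3.69% in males, and next at a repeat-rich one near Gm9195, with 51.9 and 71.1% (edgeR, adjusted p = 0.959 for both).

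The CpG-dense intergenic clusters were then set beside other parts of the table. Of them 42.4% were below 5% in WT and 23.3% at or above 80%. For CpG-dense promoter clusters these shares were 91.3 and 0.451%, for CpG-dense gene body clusters 48.8 and 15.2%, and for intergenic clusters with fewer than 30 CpGs 4.15 and 36.4%. The median WT levels were 10.9, 0.702, 5.61 and 70.4% in the same order. These shares describe the clusters, which are not replicates, and were not tested.

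By depth, 3 clusters stood apart. They had 5097, 2888 and 1813 calls per CpG in a sample on average, where the median cluster had 89.4 and the next deepest had 454. They lie near Samd9l, Arhgef26 and Axin2, at chr6:3201422-3201495, chr3:62159065-62159246 and chr11:109011801-109012011, and held 7.83% of all calls in these clusters. Their WT levels were 10.5% ± 2.95, 11.5% ± 2.58 and 9.41% ± 1.69 (SD, n = 21), and in mD3AKO 9.99% ± 3.38, 11.0% ± 2.50 and 9.41% ± 2.27 (SD, n = 23). The ribosomal DNA cluster that was left out stood at 9.67% ± 1.89 and 9.28% ± 1.97. Of the words of 24 bases in the first, 63.0% were found in that ribosomal stretch, and in the other 2 none was. None of the 3 was called for genotype.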

How the data were processed

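RRBS reads MspI fragments after bisulfite conversion, which turns unmethylated cytosines into thymines. Per the study's methods and the submitters' processing notes, the authors trimmed reads with Trim Galore 0.4.0 and cutadapt 1.9.1, aligned them to mm10 with Bismark 0.18.1, summed both strands, required 8 or more reads per CpG in each sample and left out samples of low depth and chromosomes X, Y and M. What was deposited is raw counts, not normalized: for every CpG the methylated and the unmethylated calls of each sample. Reads carried no molecular identifiers, so PCR copies count as calls.

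Counts were summed over each cluster. Ratios of methylated to unmethylated counts were modelled in edgeR 4.0.16 with a term per sample and a mean per group of genotype and time, with 1 common dispersion, and tested by the two-sided quasi-likelihood test over all 51038 clusters. The genotype effect is the mean of the 4 mD3AKO groups minus that of the 4 WT groups. The study's methods name edgeR with genotype, time and their interaction. Alternatives were limma 3.58.1 with a pseudocount of 1, a coverage minimum of 20, sex as a term and other CpG limits. Another was the likelihood ratio test with a dispersion for each cluster, so test and dispersion changed together. Refits without 1 sample were also run. They covered these 1848 clusters alone and kept the dispersion and the shared estimate of spread from the fit of all samples. For adjustment, the other clusters kept their p-values from that fit. The sample left out thus still entered the estimate of spread and the adjustment. Contrasts at rest alone and in the sets of sample numbers came from the fit of all samples. The fits with sex or the coverage minimum estimated the common dispersion anew from part of the clusters, and the 2 changes were not separated. The pipeline was tested on simulated data: 64 of 100 clusters changed by 1 unit of log odds and 95 of 100 changed by 2 were recovered, with 7 of 4800 unchanged ones called. The changed clusters had levels between 5 and 95%, so recovery below 5% was not tested. Their median log2 odds ratios came out larger than set, at -1.61 for -1.44 and -3.41 for -2.89. Cluster ends, repeat masking and sequences came from GRCm38 as given by RefSeq, on which the CpG count of all 1848 clusters matched the authors' number. GENCODE release M21 gave the genes.

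Sample groups, sexes and numbers came from the labels, and each sample is 1 mouse. The named clusters are the 12 called for genotype with the lowest p, the other 5 with the largest differences, the 5 with most CpGs, the 5 highest and 5 lowest in WT, and the 2 lowest p for time, interaction and sex. Other called clusters were added where described. The clusters and gene lists were chosen with earlier results of these data known. The authors' assignments to clusters, promoters and gene bodies were used as deposited.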

Additional observations from a re-analysis of the deposited data

Results flagged for a closer look

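In each group of 5 to 7 samples, a sample far from the others relative to the group's range was looked for in the 12 clusters with the lowest p-values for genotype and in the mean levels over the repeat-rich and the other clusters. Of the 112 groups examined, 14 had one. For normally distributed values chance gives this in about 1 of 20 groups, a rate that was not tested for these levels and does not hold for the groups below in which every other sample was at 0.

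In WT, sample 49 at 10 min was high at the clusters near Nfe2l3 (21.1%, the others 8.54 to 11.6%) and Creb3l1 (42.2%, the others 15.2 to 21.1%). At the Dll1 cluster sample 38 at 30 min had 19.2%, and at the Mrtfb cluster sample 31 at 30 min had 12.2%. At the Pim1 cluster sample 14 at rest had 12.2% and sample 25 at 60 min 27.8%, where the other samples at 60 min had 0.692 to 10.8%.

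In mD3AKO, sample 28 at 10 min had 3.95% at the Fam229a cluster and 1.71% at the Pim1 cluster, and sample 36 at 30 min had 2.25% at the Pim1 cluster. At the Mrtfb cluster sample 21 at rest had 2.56%, sample 39 at 10 min 1.37% and sample 43 at 30 min 0.942%, and the other samples of each of these groups had 0. At the Dgkh cluster sample 6 at 60 min had 2.16%, the others 0.473 to 1.02%.

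In the mean level over the clusters low in repeats, WT sample 32 at 30 min stood low, at 17.3%, and the others had 19.2 to 19.8%. Leaving out any of these samples kept the genotype calls of the 12 clusters.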

How the results depend on the processing

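Of the 26 calls for genotype, 26 were also made by the likelihood ratio test, which called 61 of these clusters, and by limma, which called 39. With sex as a term 27 were called, 24 of them the same, where 1.12% of all clusters were called. Of the 27, 2 were higher. A coverage minimum of 20 left 1191 clusters and 22 calls, adjustment over clusters with levels of 2 to 98% gave 23, and a limit of 20 CpGs gave 37. Contrasts over fewer groups in the fit of all samples gave fewer calls: 0 at rest alone (edgeR, 3 of all clusters), 3 with samples 1 to 25 and 4 with samples 26 to 50. Fewer clusters did so too: 10 at a limit of 50 CpGs, where 794 clusters were left, and 14 in the 1161 clusters clear of release M21 genes and promoters. Leaving out 1 sample at a time gave 19 to 29 calls and a difference in mean level of -0.77 to -0.63 points. That difference was -0.45 points from pooled calls. The 0 calls for time, interaction and sex stayed at 0 in each alternative run. The 12 clusters with the lowest p-values kept their direction and call in all 44 refits without 1 sample, which gave 528 results. They also did in 48 further results, from the likelihood ratio test, limma, the coverage minimum of 20 and sex as a term. At rest alone none of the 12 was called (edgeR, adjusted p = 0.0676 at the Nanos3 cluster and 0.873 or above at the others). With samples 1 to 25 and 26 to 50, at most 3 and 4 of them were. No paired analysis was possible because the sample numbers differ between all groups. Intervals were not given for single shares, since PCR copies make calls exceed molecules.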
